A study of Homo sapiens with 2 samples.

Results

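The collagen genes are the 39 genes on a set of promoter arrays whose symbol in the probe annotation has the form COL, a number, A and a number, out of 17280 genes annotated on the arrays. Of these, 25 lay on the array called chIP1 and 14 on the array called chIP2, with 11 to 69 probes per gene (median 32). The rule for members reads gene symbols and no measured value, and the set itself was picked with earlier results of these data known. The collagen genes COL6A5, COL6A6, COL15A1, COL26A1 and COL28A1 were not matched by symbol and are not analysed here.

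To map where the transcription factor GATA1 sits on promoters, chromatin from non-treated Meg-01 cells, a human megakaryocytic leukemia line, was fixed with formaldehyde, sonicated and immunoprecipitated. DNA recovered with the GATA1 (C-20) antibody (the IP, Cy5) was hybridized together with DNA recovered with normal goat IgG (the control pull-down, Cy3) on each of 2 arrays that hold different probes. The arrays are therefore not replicates, no dye swap was made, and each probe was measured in 1 hybridization of 1 cell line, so that no error between samples, no test and no p-value accompanies the values. Meg-01 is a leukemic line, and pulled-down DNA gives no expression values, so megakaryocyte markers were not checked. The pull-down with IgG shares the cells and the chromatin preparation but not the antibody, and differences between the antibodies, the dyes and the amplified samples cannot be told apart.

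Collagens are the main structural proteins of the extracellular matrix. They are made of 3 chains wound into a triple helix, each chain encoded by its own gene, and fall into classes by the structure they build: fibrils, the network of basement membranes, proteins on the fibril surface, transmembrane proteins and others. Megakaryocytes and platelets meet collagen in the bone marrow and in the vessel wall, where it activates platelets through receptors such as glycoprotein VI. GATA1 binds the sequence GATA flanked by A or T before it and A or G behind it, and is required for the development of red cells and megakaryocytes.

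The 6 genes for type IV collagen, the basement membrane collagen, lie as 3 head-to-head pairs, in which a pair of genes is transcribed in opposite directions from a shared promoter. To show what such a shared promoter is made of, the 250 bases before the start of 1 gene of each pair are given, 5′ to 3′ on the strand of that gene, from RefSeq (GRCh38.p14). The stretch of COL4A2 overlapped that of COL4A1 by 126 bases, that of COL4A3 overlapped that of COL4A4 by 82 bases, and that of COL4A5 overlapped that of COL4A6 by 121 bases. Between the nearest RefSeq starts of these pairs lay 126, 418 and 379 bases, which differ from the distances on the array given below. The motif searched was AGATAA with its variant AGATAG, and likewise TGATAA with its variant TGATAG, on both strands. None of the 3 stretches holds a match, so no letters are in capitals.
COL4A2 (chr13:110307034-110307283, plus strand): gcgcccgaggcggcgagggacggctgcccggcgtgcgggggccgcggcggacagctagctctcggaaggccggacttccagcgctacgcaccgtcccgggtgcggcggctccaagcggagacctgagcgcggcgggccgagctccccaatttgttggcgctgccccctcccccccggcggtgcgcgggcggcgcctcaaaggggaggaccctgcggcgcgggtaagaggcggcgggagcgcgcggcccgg
COL4A3 (chr2:227164374-227164623, plus strand): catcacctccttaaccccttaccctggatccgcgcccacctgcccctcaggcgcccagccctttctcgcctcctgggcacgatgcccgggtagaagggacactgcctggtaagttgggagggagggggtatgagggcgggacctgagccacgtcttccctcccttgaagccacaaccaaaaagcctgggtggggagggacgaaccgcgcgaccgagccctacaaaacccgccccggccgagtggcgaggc
COL4A5 (chrX:108439588-108439837, plus strand): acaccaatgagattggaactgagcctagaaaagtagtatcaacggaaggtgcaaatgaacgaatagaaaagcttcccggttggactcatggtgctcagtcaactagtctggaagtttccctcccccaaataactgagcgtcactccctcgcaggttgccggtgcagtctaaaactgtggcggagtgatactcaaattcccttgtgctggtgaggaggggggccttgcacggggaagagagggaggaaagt

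RefSeq held 40 upstream stretches for 28 of the 39 collagen genes. A match to 1 of these 4 words on either strand was found in 6 of the 40 stretches (15%), and in 22.3% of the 35116 stretches of the same length over all genes. The 6 stretches belong to COL21A1, which has 3 annotated starts and a match before each of them, and to COL17A1, COL19A1 and COL25A1. They are printed because they are the collagen stretches that hold a match, with the matches in capitals. The median GC content was 63.6% in the collagen stretches and 58.0% in all stretches, with a range among the collagen genes from 32.4% (a start of COL10A1) to 88.4% (a start of COL18A1). A match is a description of these letters only.
COL17A1 (chr10:104085881-104086130, minus strand): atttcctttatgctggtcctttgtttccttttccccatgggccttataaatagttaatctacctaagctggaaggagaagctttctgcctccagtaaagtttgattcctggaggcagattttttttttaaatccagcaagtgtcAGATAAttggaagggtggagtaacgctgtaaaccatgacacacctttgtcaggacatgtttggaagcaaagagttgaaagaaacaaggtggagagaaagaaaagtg
COL19A1 (chr6:69866306-69866555, plus strand): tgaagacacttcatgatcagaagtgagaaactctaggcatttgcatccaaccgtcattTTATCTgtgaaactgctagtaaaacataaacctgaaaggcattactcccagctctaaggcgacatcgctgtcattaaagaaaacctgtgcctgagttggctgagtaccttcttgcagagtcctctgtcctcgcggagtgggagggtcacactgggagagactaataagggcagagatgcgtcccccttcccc
COL21A1 (chr6:56091663-56091912, minus strand): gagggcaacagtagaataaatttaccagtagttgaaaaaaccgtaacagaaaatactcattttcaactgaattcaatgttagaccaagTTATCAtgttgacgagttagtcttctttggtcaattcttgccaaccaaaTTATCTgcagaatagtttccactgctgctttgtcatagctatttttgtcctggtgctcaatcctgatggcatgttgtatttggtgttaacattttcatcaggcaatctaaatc
COL21A1 (chr6:56247581-56247830, minus strand): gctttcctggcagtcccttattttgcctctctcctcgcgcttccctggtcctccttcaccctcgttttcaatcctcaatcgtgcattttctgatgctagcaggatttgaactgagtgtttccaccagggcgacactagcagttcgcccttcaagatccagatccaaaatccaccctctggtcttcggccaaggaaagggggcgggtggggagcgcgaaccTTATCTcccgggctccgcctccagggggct
COL21A1 (chr6:56394129-56394378, minus strand): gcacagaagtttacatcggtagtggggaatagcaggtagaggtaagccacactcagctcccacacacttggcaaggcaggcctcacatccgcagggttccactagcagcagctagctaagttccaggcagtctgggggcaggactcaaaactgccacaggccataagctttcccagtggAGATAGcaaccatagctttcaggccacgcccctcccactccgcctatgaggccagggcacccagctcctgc
COL25A1 (chr4:109302659-109302908, minus strand): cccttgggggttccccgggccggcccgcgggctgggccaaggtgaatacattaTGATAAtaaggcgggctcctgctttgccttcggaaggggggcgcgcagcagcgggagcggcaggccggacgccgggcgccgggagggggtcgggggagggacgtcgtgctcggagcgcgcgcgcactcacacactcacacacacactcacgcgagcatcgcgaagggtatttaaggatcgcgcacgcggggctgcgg

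The value of a probe was log2 of the IP intensity over the IgG intensity with the array median set to 0, and all values below are on this scale. A window was the mean of 3 adjacent probes. A window of at least 1, that is 2-fold toward the IP, was called enriched, and a window of -1 or less, 2-fold toward the IgG, was called depleted. The genome build of the probe coordinates is not given in the sources used here, so positions are given as distances from the start annotated on the array, negative for upstream, and were not joined to the RefSeq coordinates. The raw signals were low. The median mean signal was 543 and 544 in the IP channel and 412 and 440 in the IgG channel of chIP1 and chIP2, against 342 and 340 and against 303 and 303 for negative control spots, and 99.3% to 99.8% of the probes passed the well-above-background flag of the scanner in each channel.

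The first comparison was the number of collagen genes with an enriched window against the number with a depleted window and against all genes. An enriched window was found in 26 of the 39 collagen genes (66.7%), and in 57.1% of the 17054 genes with windows. A depleted window was found in 27 of the 39 (69.2%), and in 52.9% of all genes. Both kinds were found in 19 of the 39 collagen genes, and in 31.3% of all genes. Neither kind was found in 5 collagen genes, and the share of all genes with neither was not computed. The collagen genes carried more windows (median 29) than all genes (median 23), which gives a gene more chances of an extreme window. Among genes with 25 to 37 windows, the middle range of the collagen genes, 65.4% of 5336 genes had an enriched window and 65.5% a depleted window. Of the 20 collagen genes in that range, 12 (60.0%) had an enriched window and 14 (70.0%) a depleted window. At a like number of windows the share of enriched collagen genes was thus near the background.

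Per window, the collagen genes leaned to the IgG side. Of their 1278 windows, 95 were enriched (7.43%, against 7.62% of all 415409 windows) and 169 depleted (13.2%, against 9.65%). The IP side made up 36.0% of the collagen windows past 2-fold, and 44.1% of all windows past 2-fold (95% Wilson interval of the collagen share 30.4% to 41.9%, which covers counting error only and takes windows that share probes as separate). The median highest window was 1.31 in the collagen genes and 1.09 in all genes. The median lowest window was -1.45 in the collagen genes and -1.05 in all genes. The mean over all windows of a gene ran from -0.85 (COL4A6) to 0.68 (COL11A2) with a median of -0.06, against 0.04 for all genes. The collagen windows were also dim, with a median at the 39.5th percentile of intensity on their array and 33.3% at or below the 25th percentile. Over the 39 genes the mean of the windows rose with their median intensity percentile (Pearson r = 0.46, Spearman rho = 0.44, as a description over genes that share 2 arrays), and r was 0.42 over all genes. The part of intensity in the values was not tested.

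**Figure D1:**
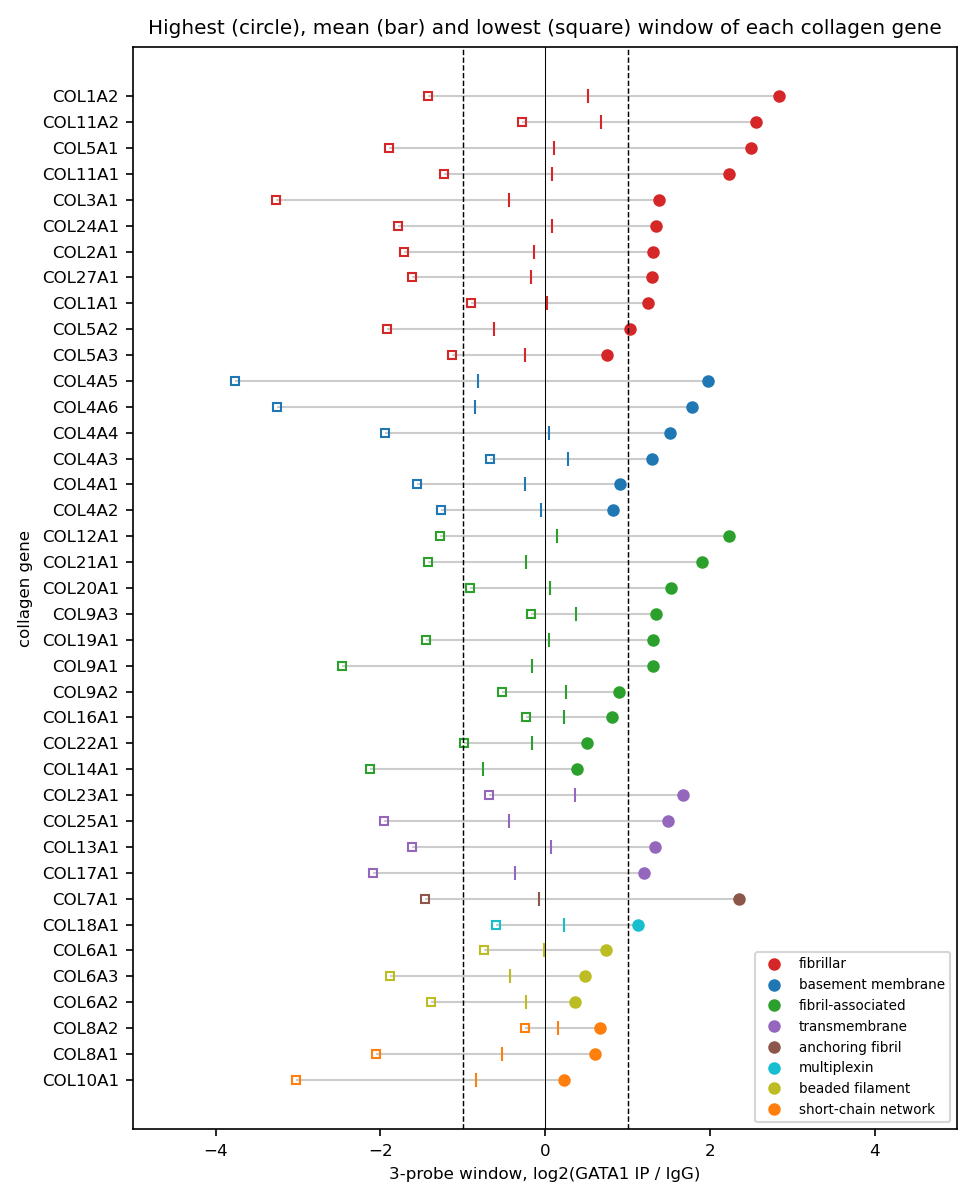
Highest window (filled circle), mean of all windows (bar) and lowest window (open square) of each of the 39 collagen genes, in log2(IP/IgG), colored by class; dashed lines mark 2-fold in either direction. COL1A2 had the highest window at 2.83 and COL4A5 the lowest at -3.77, and no beaded filament or short-chain network gene reached 1.

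Fibrillar collagens, which form the tensile fibers of skin, bone, cartilage and vessel wall, had an enriched window in 10 of 11 genes, with a median highest window of 1.35, and a depleted window in 9 of 11, against 57.1% and 52.9% of all genes. They had a median of 35 windows per gene, against 23 for all genes. At a like number of windows the background was 65.4% enriched and 65.5% depleted. Of their 366 windows, 12.3% were enriched and 13.9% depleted, against 7.62% and 9.65% of all windows. The exception on the IP side was COL5A3, whose highest window was 0.76. The 4 fibrillar genes COL1A2, COL11A2, COL5A1 and COL11A1 were among the 5 highest collagen genes.

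COL1A2 encodes the alpha2 chain of type I collagen, the main collagen of bone and skin, and had the highest window of all collagen genes (2.83, the 98.8th percentile on its array). The 9 adjacent probes from 2882 to 1453 bp upstream read 1.77, 2.25, 2.95, 3.30, 1.42, 2.64, 3.08, 1.72 and 1.04. All of them were past 2-fold, the longest such run on the IP side among the collagen genes, where the next was 4 probes in COL12A1. Nearer to the start the probes at -571, -405, -286, -159, 8 and 137 bp read -2.73, 0.42, -1.94, -0.19, 0.15 and 0.03. The first 3 gave the lowest window of the gene (-1.42, centered 405 bp upstream), 1 of its 2 depleted windows. The stretch was among the dimmest on the array. Its mean IP signals were 361 to 447 against 342 for negative controls, its IgG signals were 303 to 329 against 303, and the highest window lay at the 1.37th percentile of intensity. With normexp background correction and loess, described below, the highest window of the gene was 0.76.

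COL1A1 encodes the alpha1 chain that joins the COL1A2 product in the same triple helix. Its highest window was 1.25, with probes of 1.55, 1.91 and 0.28 centered 4664 bp upstream, and it had 2 enriched and no depleted windows. Within 1000 bp of the start its highest window was 0.23, and that of COL1A2 was 0.35. Neither gene for type I collagen thus had an enriched window there, and COL1A2 alone of them had a depleted one.

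COL11A2 and COL11A1 encode chains of type XI collagen, a minor partner of type II collagen in cartilage fibrils. In COL11A2 the window centered at 664 bp was 2.56, from probes of 3.94, 0.83 and 2.90 at 768, 664 and 565 bp inside the gene, and the next probe at 417 bp read 2.85. These probes were brighter in the IP channel than those of COL1A2, with mean IP signals of 506 to 1371. The probes of 3.94, 2.90 and 2.85 had IgG signals of 319, 309 and 322, near the 303 of negative controls. The probe of 0.83 had the IP signal of 1371 and an IgG signal of 611. Further inside, the 10 probes from 1029 to 2476 bp lay between -0.88 and 0.32, and COL11A2 had no depleted window. In COL11A1 the probes at 378, 163 and 27 bp read 0.89, 4.22 and 1.59, a window of 2.23, so most of that value came from 1 probe. COL2A1, which encodes the type II chain and also the remaining chain of type XI collagen, had 1 enriched window (1.31, centered 3121 bp upstream) and 3 depleted windows.

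COL5A1 encodes the main chain of type V collagen, which sets the diameter of type I fibrils. Its highest window of 2.49 held probes of 2.82, 0.40 and 4.27 at 1668, 2027 and 2249 bp inside the gene, the middle one below 2-fold. The probe of 4.27 had an IgG signal of 303, the level of the negative controls, and the highest window of COL5A1 was 1.97 with only probes well above background in both channels and 1.29 with normexp and loess. It belonged to 8 enriched windows in 1 region, with further probes of 2.61, 1.75 and 1.54 at 1145, 1254 and 1408 bp. The same gene had 10 depleted windows upstream, where 5 adjacent probes from 4006 to 2959 bp upstream read -1.25, -1.08, -1.11, -1.32 and -1.24. COL5A1 was thus high inside the gene and low in a part of its upstream region. Within 1000 bp of the start its windows lay between 0.16 and 0.94. Its partner gene COL5A2 had 1 enriched window (1.03) and 13 depleted windows, the lowest at -1.92 with its center 374 bp inside the gene.

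COL3A1 encodes type III collagen of vessel wall and soft tissue and had both sides within a short distance. From 3241 to 2469 bp upstream its 6 probes read 1.48, 1.27, 0.93, 1.76, 1.32 and 1.06, with a highest window of 1.38. From 4357 to 4075 bp upstream its 3 probes read -2.58, -3.11 and -4.12, a window of -3.27. The low stretch was dim, with mean IP signals of 345 to 349 and IgG signals of 330 to 348, both near the negative controls. The 6 probes of the high stretch were brighter, with IP signals of 420 to 953 and IgG signals of 319 to 471. The highest window of COL3A1 was 0.97 with normexp and loess and 0.97 with normexp without loess. The remaining fibrillar genes COL24A1 (1.35) and COL27A1 (1.30) had enriched windows in 4 and 5 of their windows.

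**Figure D2:**
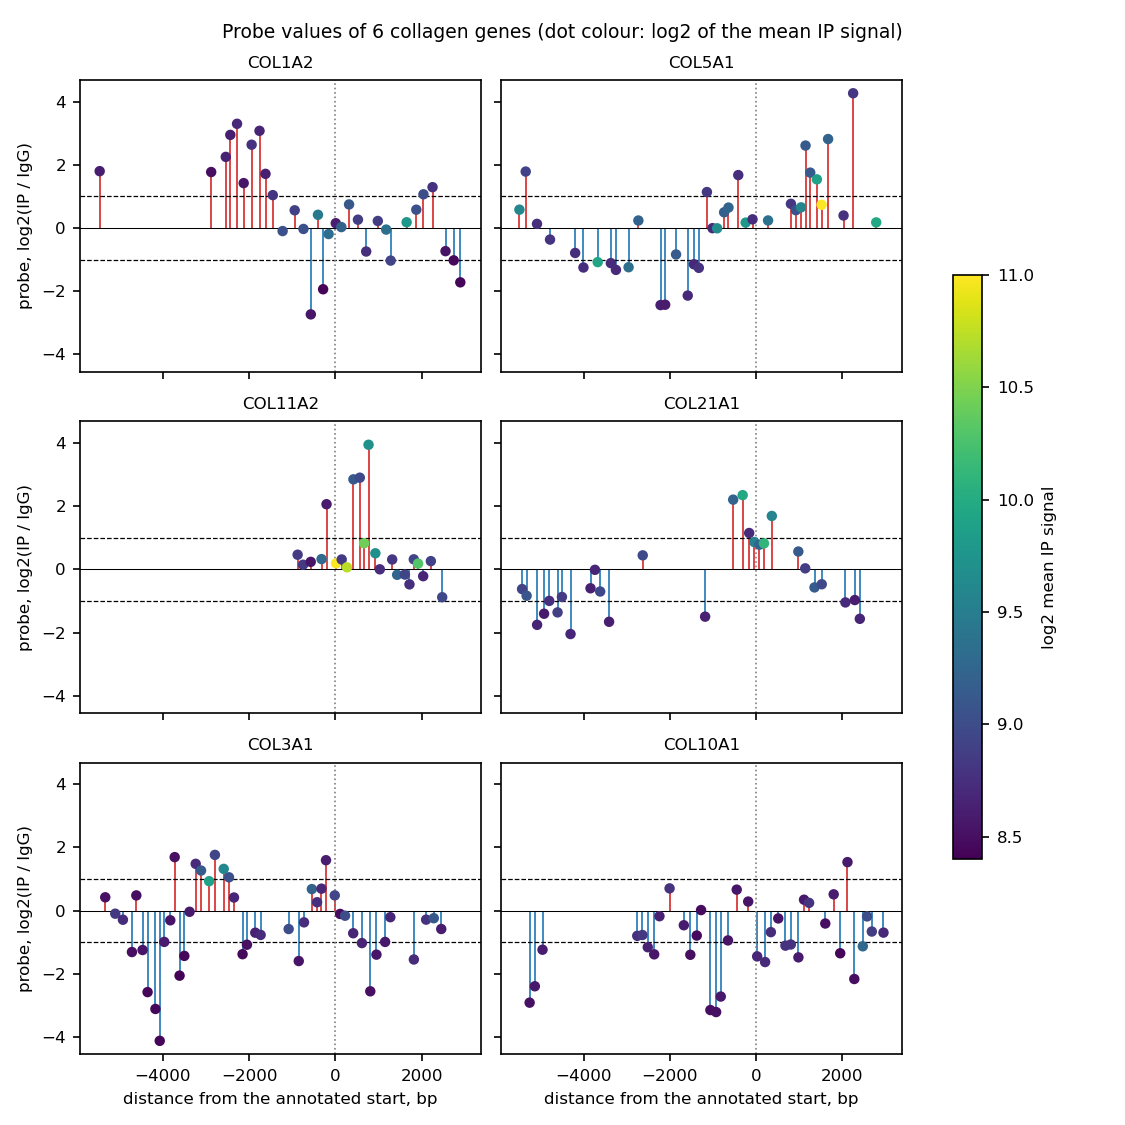
Probe values in log2(IP/IgG) against distance from the annotated start in bp for COL1A2, COL5A1, COL11A2, COL21A1, COL3A1 and COL10A1, with the dot color giving log2 of the mean IP signal and dashed lines at 2-fold. The COL1A2 stretch from 2882 to 1453 bp upstream is high but dark (dim), COL21A1 is high around its start, and COL10A1 is mostly below 0.

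Type IV collagen genes had an enriched window in 4 of 6 genes, close to the background of 65.4% at a like number of windows, and a depleted window in 5 of 6 (background 65.5%). Of their 157 windows 5.10% were enriched and 23.6% depleted, against 7.62% and 9.65% of all windows, and their median window lay at the 21.4th percentile of intensity. Around the shared promoters, windows centered within 1000 bp of a start were counted. Over all genes, 33.5% had an enriched window in this range and 17.4% a depleted one. None of the 3 pairs had an enriched window there, and only COL4A5 and COL4A6 had depleted ones. The highest windows there were 0.83 for COL4A1 and COL4A2, 0.54 for COL4A3 and COL4A4 and 0.73 for COL4A5 and COL4A6.

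COL4A1 and COL4A2 encode the chains found in nearly all basement membranes. Their annotated starts lay 171 bp apart on the array, and 12 probes within 1000 bp had a median of 0.51, with a lowest of -0.56 and a highest of 1.37. On the side of COL4A1 the probes at 6, 152, 377, 485, 711 and 866 bp read -0.56, 0.47, -0.19, 0.83, 0.57 and 0.67. On the side of COL4A2 the probes at 48, 204, 327, 505, 718 and 897 bp read 0.19, -0.16, 0.76, -0.04, 1.37 and 0.55. Both sides were close to 0 to slightly positive, with 8 of 12 probes above 0 and 1 past 2-fold. Farther inside, COL4A1 had 4 depleted windows, the lowest at -1.55 centered at 2829 bp.

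COL4A3 and COL4A4 encode chains of the kidney, ear and eye basement membrane that are mutated in Alport syndrome. Their starts were annotated 6 bp apart on the array, against 418 bases between them in RefSeq. The printed stretch and the probe distances therefore need not refer to the same starts. Of the 11 probes within 1000 bp, 10 were above 0, with 1.02 as the highest at 174 bp inside COL4A4. The exception was -1.52 at 937 bp inside COL4A3. The enriched windows of both genes lay outside this range, at 1993 bp inside COL4A3 (1.30) and at 1539 bp inside COL4A4 (1.52, of which a single probe of 3.41 made up most). With only probes well above background in both channels, the highest window of COL4A4 was 0.54.

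COL4A5 and COL4A6 lie on chromosome X, and COL4A5 is the other gene of Alport syndrome. The array annotation placed a COL4A6 start 442 bp from that of COL4A5 and a farther COL4A6 start beyond it. The 3 probes between the nearest starts, marked as a divergent promoter, read 0.80, -0.06 and -0.18. Inside the farther COL4A6 start, the probe at 76 bp read 2.06, the highest of the pair within 1000 bp of a start, between neighbors of 0.09 and 0.06. Runs of low probes lay on both sides. On the side of COL4A5 the probes at 900, 1033 and 1145 bp read -2.54, -2.98 and -2.71, and on the side of COL4A6, 10 adjacent probes from 644 to 2356 bp inside the farther start lay between -3.81 and -1.30. Of the 20 probes within 1000 bp of a start, 9 were at least 2-fold toward the IgG, and 8 of the 20 windows were depleted. These low probes were dim, with mean IP signals of 343 to 437 along the COL4A6 run against 340 for negative controls.

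The lowest window of all collagen genes, -3.77, also belonged to COL4A5, 144513 bp inside the gene where a second cluster of 30 probes lay. There, 12 adjacent probes from 143352 to 145198 bp lay between -4.48 and -1.42, with IP signals of 343 to 392, and the window was at the 0.669th percentile of intensity. Highest windows of 1.98 in COL4A5, centered at 2819 bp, and 1.79 in COL4A6, centered at 3022 bp, were also dim (5.87th and 1.47th percentile). With normexp and loess the highest windows of these genes, wherever they lay, were 0.50 and 0.24.

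Fibril-associated collagens, which sit on the surface of fibrils, had an enriched window in 6 of 10 genes and a depleted window in 5 of 10, near the 57.1% and 52.9% of all genes. Their median was 28.5 windows per gene, and the background at a like number of windows was 65.4% and 65.5%. COL12A1, found in tendon and around muscle, had the highest value with a window of 2.23, from probes of 1.32, 2.53 and 2.83 at 4574, 4466 and 4294 bp upstream. With the probe of 1.03 at 4789 bp these made a run of 4 past 2-fold. The IP signals of the run were 425 to 784. Downstream of it, the 6 probes from 3935 to 3136 bp upstream lay between 0.20 and 0.98, and the lowest window of the gene was -1.28.

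COL21A1, a fibril-associated collagen of vessel wall, had the highest collagen window centered upstream within 1000 bp of a start. Its probes at -533, -313 and -162 bp read 2.21, 2.35 and 1.15, a window of 1.90. The probes that followed, at -45, 75, 181 and 363 bp, read 0.86, 0.78, 0.82 and 1.69. All 7 probes across the start were thus positive, between 0.78 and 2.35, and their mean IP signals were 418 to 1097. Outside, COL21A1 had 8 depleted windows, with a lowest of -1.43 centered 4505 bp upstream. Each of the 3 RefSeq stretches printed above for COL21A1 holds a motif match. The array annotates 1 of the starts, and which of the 3 it is was not worked out, because the coordinates could not be joined.

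Among the other fibril-associated genes, COL20A1 had a window of 1.52 centered 371 bp inside the gene (probes of 1.25, 2.30 and 1.02). COL9A1, COL9A3 and COL19A1, of which the COL9 genes encode type IX collagen of cartilage, had highest windows of 1.31, 1.34 and 1.31. A single probe of 3.48 made up most of the COL19A1 window, between neighbors of 0.27 and 0.18. That probe had an IgG signal of 304, near the negative controls. COL9A1 also had the fifth lowest window of the collagen genes, -2.47, within 7 adjacent probes from 2301 to 1298 bp upstream of 1 of its 2 clusters of probes, which lay between -3.32 and -1.03. COL9A2 (0.89), COL16A1 (0.82), COL22A1 (0.51) and COL14A1 (0.39) had no enriched window. The 23 probes of COL14A1 all lay 121186 to 127946 bp inside the gene, so its promoter was not measured.

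All 4 transmembrane collagens had an enriched window, with values of 1.67 for COL23A1, 1.49 for COL25A1, 1.33 for COL13A1 and 1.20 for COL17A1, and 3 of 4 had a depleted window, where 57.1% and 52.9% of all genes had one. The class had a median of 32 windows per gene, and the background at a like number of windows was 65.4% and 65.5%. COL23A1 was the only one of the 4 without a depleted window. Its highest window held probes of 1.75, 2.20 and 1.06 at 29951, 29840 and 29647 bp inside the gene, in a second cluster of 25 probes, and was bright (72.3rd percentile, IP signals of 587 to 1672). Around its annotated start, probes of 1.56 and 1.27 at -192 and -351 bp and probes of 1.29, 0.79, 1.45 and 1.25 from 1499 to 1044 bp were also raised, and its highest window within 1000 bp was 1.18. In COL13A1 the probes at -844, -688 and -538 bp read 1.31, 1.60 and 1.09. COL17A1, the collagen of hemidesmosomes in skin, and COL25A1 had 11 and 12 depleted windows. Their highest windows within 1000 bp of the start were 1.03 and 0.94.

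COL7A1 encodes the anchoring fibril that ties the epidermis to the dermis. Its highest window of 2.35, centered 870 bp inside the gene, held probes of 5.00, 1.13 and 0.93, so that 1 probe carried most of it. That probe had mean signals of 524 in the IP and 306 in the IgG channel, and with only probes well above background in both channels the highest window of COL7A1 was 0.78. COL18A1, a basement membrane collagen of the multiplexin class and the source of endostatin, had 2 enriched windows of 63 (highest 1.12, centered 3793 bp upstream) and no depleted window.

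The type VI collagens, which form beaded filaments around cells, and the short-chain collagens of types VIII and X had no enriched window in any of 6 genes, where 57.1% of all genes had one. The highest windows were 0.74, 0.36 and 0.48 in COL6A1, COL6A2 and COL6A3, and 0.60, 0.67 and 0.23 in COL8A1, COL8A2 and COL10A1. The type VI genes had 22 to 33 windows each and a median window at the 60.5th percentile of intensity. Depleted windows were found in 2 of 3 genes of either class, and in 52.9% of all genes. The classes had medians of 28 and 32 windows per gene. The background at a like number of windows was 65.4% enriched and 65.5% depleted. At the start of COL6A2 the 11 probes from -504 to 801 bp lay between -0.05 and 0.52.

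COL10A1, a marker of the growth plate, had the lowest highest window of all collagen genes (0.23) and a lowest window of -3.03, from probes of -2.72, -3.21 and -3.15 at 821, 929 and 1062 bp upstream. Of its 37 probes, those at 23 and 207 bp inside the gene read -1.45 and -1.63, and those at -185 and -451 bp read 0.29 and 0.66. Its mean over all windows was -0.84, the 1.83rd percentile among genes of its array. The gene was dim throughout, with a median window at the 10.8th percentile of intensity.

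By distance from the start, the median was higher near the start than upstream in the collagen genes, as in all genes, and the share of enriched windows was not. Windows within 500 bp of the start had a median of 0.19 (all genes 0.27), and those 4000 to 2000 bp upstream a median of -0.26 (all genes -0.16). Within 500 bp, counted as pairs of a window and a gene, 7.01% of 214 collagen windows were enriched (10.5% over all genes) and 4.21% depleted (4.08%). From 4000 to 2000 bp upstream, 7.65% of 196 collagen windows were enriched (6.51% over all genes) and 21.9% depleted (14.3%). The share of IgG-side windows was thus above that of all genes upstream and close to it at the start.

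An enriched window centered within 1000 bp of the start was found in 11 of the 38 collagen genes with such windows (28.9%, against 33.5% of 16604 genes), and a depleted one in 8 (21.1%, against 17.4%). The 11 genes were COL11A2 (2.56), COL7A1 (2.35), COL11A1 (2.23), COL21A1 (1.90), COL20A1 (1.52), COL13A1 (1.33), COL9A1 (1.23), COL23A1 (1.18), COL24A1 (1.05), COL17A1 (1.03) and COL19A1 (1.01). Of the 4 genes with a motif match in a printed stretch, 3 were among them (COL21A1, COL17A1 and COL19A1), and of the 24 genes with RefSeq stretches and no match, 7 were. The COL17A1 window was centered 890 bp inside the gene, outside the printed stretch, and the COL19A1 window 343 bp upstream.

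**Figure D3:**
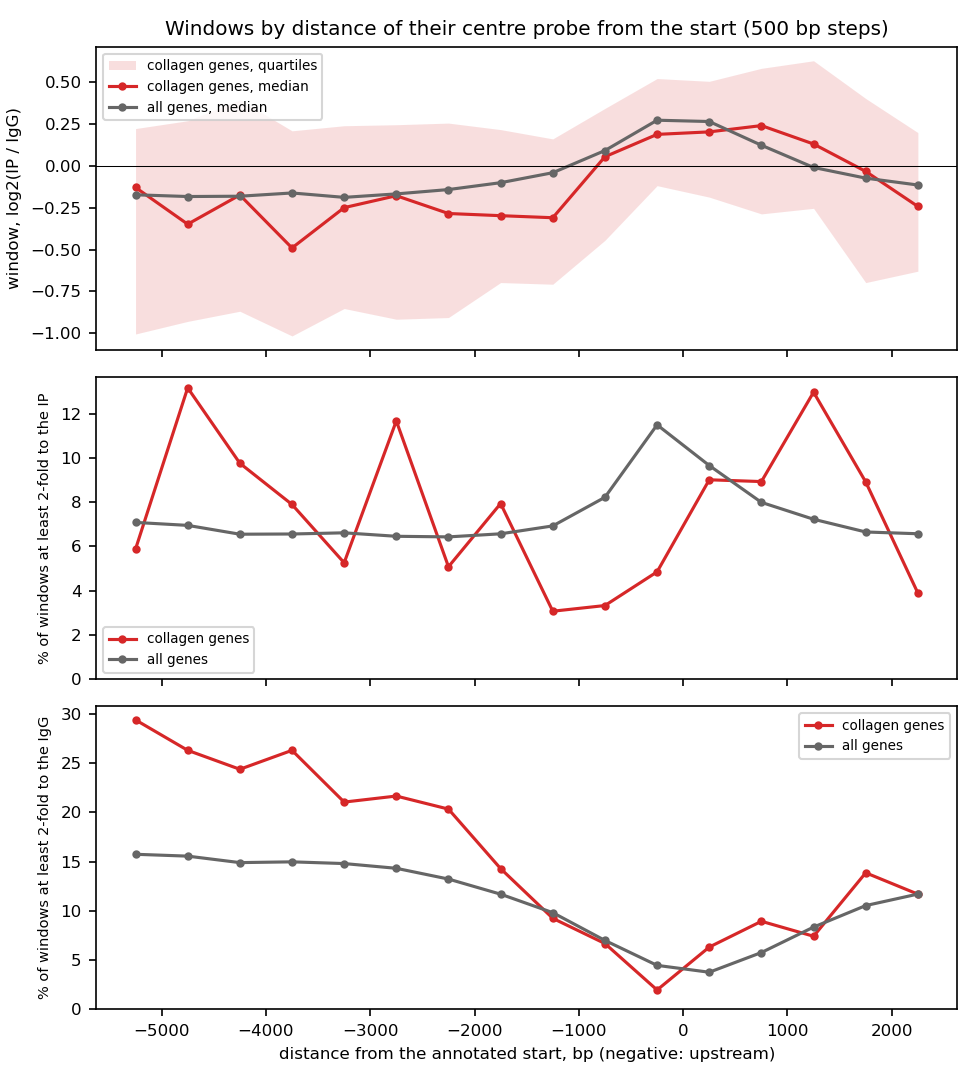
Windows of the collagen genes (red) and of all genes (gray) in steps of 500 bp from the annotated start: the median log2(IP/IgG) with the quartiles of the collagen genes shaded, the percent of windows at least 2-fold toward the IP, and the percent at least 2-fold toward the IgG. The medians are higher near the start in both groups, and the enriched share of the collagen genes has no peak there. It is 4.85% from -500 to 0 bp (all genes 11.5%), 9.01% from 0 to 500 bp (9.65%) and 13.0% from 1000 to 1500 bp (7.23%). From 4000 to 2000 bp upstream 21.9% of the collagen windows and 14.3% of all windows are on the IgG side.

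Because much of the signal was dim, the same counts were made after another background treatment, normexp correction of the mean signals with their local background followed by loess within each array. It left 9 of 39 collagen genes with an enriched window (23.1%, against 21.2% of all genes) and 19 with a depleted window (48.7%, against 24.3%). The 9 genes were all among the 26 above: COL11A2 (1.47), COL11A1 (1.42), COL23A1 (1.34), COL5A1 (1.29), COL21A1 (1.22), COL12A1 (1.20), COL7A1 (1.09), COL9A3 (1.07) and COL13A1 (1.05). Without loess, a setting added after the values had been seen, 9 collagen genes were enriched (33.1% of all genes) and 21 depleted (23.9% of all genes). With windows of 5 probes, 15 genes were enriched (34.1% of all genes) and 20 depleted (33.5% of all genes). The 6 genes COL11A1, COL11A2, COL12A1, COL21A1, COL23A1 and COL5A1 had an enriched window in the main setting, with both normexp settings and with windows of 5 probes. The share of all genes that passed all of these settings was not computed, so this count has no background beside it. An enriched region of at least 2 windows was found in 21 collagen genes, and in 43.1% of all genes.

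**Figure D4:**
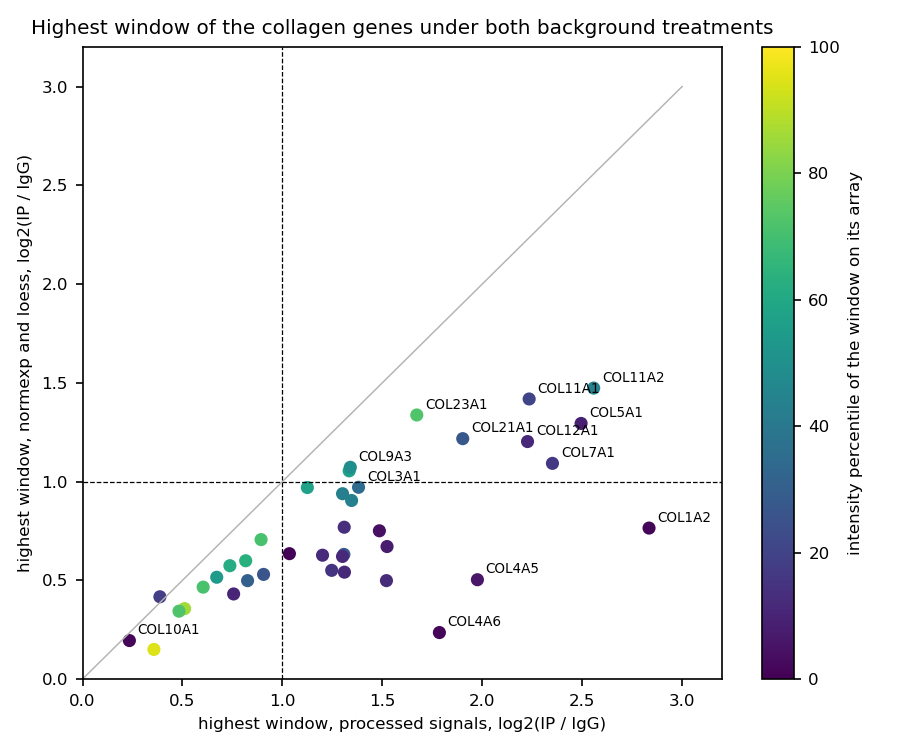
Highest window of each of the 39 collagen genes with processed signals (horizontal) against normexp and loess (vertical), both in log2(IP/IgG), colored by the intensity percentile of the highest window, with dashed lines at 2-fold and a gray line of equal values. COL1A2 (2.83 and 0.76), COL4A5 (1.98 and 0.50) and COL4A6 (1.79 and 0.24), all among the dimmest, lie farthest below the line, and COL23A1, the brightest of the labeled high genes, lies closer to it.

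Genes that process collagen (prolyl and lysyl hydroxylases, propeptide proteases, chaperones and cross-linking oxidases) and genes for collagen receptors were counted for comparison. Of 27 processing genes 16 had an enriched window (59.3%, against 57.1% of all genes) and 10 a depleted window (37.0%, against 52.9%), with a median highest window of 1.16. Their median was 27 windows per gene (range 9 to 45), and the background for genes with 25 to 37 windows was 65.4% enriched and 65.5% depleted. The highest were LOX, the oxidase that cross-links collagen (2.57, probes of 2.37, 2.92 and 2.44 centered 3594 bp upstream), P4HA1, a catalytic subunit of prolyl hydroxylase (2.13, centered 21887 bp inside the gene), and LEPREL1, a prolyl 3-hydroxylase (2.12). These windows lay at the 8.59th, 1.60th and 5.65th percentile of intensity, and the highest windows of the 3 genes with normexp and loess were 1.14, 0.76 and 0.90. The lowest was P4HA2 at 0.14, which like P4HA1 encodes a catalytic subunit of prolyl hydroxylase.

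Of 11 receptor genes, 9 had an enriched window (81.8%, against 57.1% of all genes) and 6 a depleted window (54.5%, against 52.9%), with a median highest window of 1.32. Their median was 31 windows per gene, and the background at a like number of windows was 65.4% enriched and 65.5% depleted. CD36 was the highest, with 2.51 from probes of 4.09, 2.08 and 1.36 centered 222 bp upstream, and it had 33 depleted windows of 77. DDR1 and DDR2, the discoidin domain receptor kinases, had 1.77 and 1.43, in windows centered 485 and 190 bp upstream. With normexp and loess the highest windows of CD36, DDR1 and DDR2 were 1.04, 1.30 and 0.81. GP6, which encodes the platelet receptor glycoprotein VI, had 1 enriched window of 9 (1.15, from probes of 0.88, 1.25 and 1.30 centered 3533 bp upstream). This window was bright, at the 93.7th percentile of intensity, and the highest window of GP6 was 0.96 with normexp and loess. ITGA2, the alpha2 chain of the other main platelet collagen receptor, had no enriched window (0.44) and 7 depleted windows.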

How the data were processed

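The data are a chromatin immunoprecipitation on promoter arrays (ChIP-on-chip) of GATA1 against normal goat IgG in Meg-01 cells, with 2 arrays of different probes and 1 hybridization each. What the authors deposited is scanner output, 1 table per array, made with Agilent Feature Extraction 9.5.3.1 per the file headers. The deposited processed intensities had a spatial surface subtracted, were detrended and were dye-normalized by a linear factor, with no local background subtraction. The deposited log10 ratio divides the IP (Cy5) by the IgG (Cy3) intensity, and the value table of the series holds identical ratios. The p-value deposited with each ratio is the scanner software's own estimate of technical error and was used only in 1 alternative. The study used lowess, median normalization and peak calling in commercial software, which were not used here. The genome build is not given in the sources used here.

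Log2 ratios of processed signals were centered on the array median. Control spots and non-uniformity outliers were removed, and a probe had to be well above background in at least 1 channel, which left 1372 of 1374 collagen probes. Windows held 3 adjacent probes with neighbors within 1000 bp of the center, and a gene took the highest window that held 1 of its annotated probes. Enriched windows within 1000 bp were joined into regions. Python 3.11.15 (pandas 2.3.3) and, for loess and normexp (offset 50), limma 3.58.1 in R 4.3.3 were used, and the window step was tested on simulated data. Collagen genes named in full are the 10 highest, the 5 with the lowest highest window, the 5 with the lowest windows and the head-to-head pairs; of the processing and receptor lists, the 3 highest and the lowest of each, GP6 and ITGA2. Other genes named, such as COL20A1 or COL13A1, were chosen to account for each class. The members, classes and lists were chosen with earlier results of these data known. Of 28 listed processing genes 27 were found, and all 11 receptor genes. Promoter stretches were taken from RefSeq (GRCh38.p14). Precision is limited by having 1 hybridization per probe.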

Additional observations from a re-analysis of the deposited data

How the results depend on the processing

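No paired analysis was possible because the arrays hold different probes and each comparison rests on 1 hybridization. The first settings were loess, the series values, no filter on dim probes, both channels well above background, and the distance trend removed. In these, 55.0% to 58.4% of all genes had an enriched window. The number of collagen genes with an enriched window (26 in the main setting) was 23 to 27 there. It was 35 with single probes (86.1% of all genes), 34 at 1.5-fold (85.0%) and 35 by the scanner error model (85.2%), and 21 with at least 2 enriched windows in a region (43.1%), a setting added after seeing the data. It was 9 with normexp and loess (21.2% of all genes), 9 with normexp without loess (33.1%) and 15 with windows of 5 probes (34.1%). At 3-fold it was 10 (20.6% of all genes), and within 1000 bp of the start 11 (33.5%). The number with a depleted window (27) was 17 at 3-fold (22.3% of all genes) and 8 within 1000 bp (17.4%). The share of collagen windows on the IP side (36.0%, all windows 44.1%) was 43.4% with loess (all 49.8%), 27.1% with normexp and loess (all 43.9%), 26.1% with normexp without loess (all 56.6%), 30.2% with windows of 5 probes (all 41.7%), 29.5% at 3-fold (all 39.5%) and 52.8% within 1000 bp. For all genes the share within 1000 bp was not computed. The median highest window (1.31) was 0.63 with normexp and loess, 0.72 with normexp without loess, 0.91 with windows of 5 probes and 0.68 within 1000 bp. At the head-to-head promoters, already limited to 1000 bp, the highest single probes were 1.37 for COL4A1 and COL4A2, 1.02 for COL4A3 and COL4A4 and 2.06 for COL4A5 and COL4A6, and with windows of 5 probes the COL4A3 and COL4A4 value was 1.03, since such a window reaches past 1000 bp. The cause of these shifts was not tested, apart from the fewer windows or wider windows that the setting itself makes. Across alternatives, 299 values of named genes were computed, and 43 of them crossed 2-fold, of which 11 were with normexp and loess, 11 with normexp without loess and 11 within 1000 bp. Each value was the highest window picked anew in that setting, so it need not be the same window. Signals close to the negative controls limit the dim windows, such as those of COL1A2, COL3A1, COL4A5, COL4A6 and COL5A2.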
